A study of Mus musculus with 6 samples.

Results

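The cytokine IL-33, the cytokines of the IL-6 family and the receptors of both were followed in 10 genes, *Il33*, *Il1rl1*, *Il1r1*, *Il17rb*, *Il6*, *Il6ra*, *Il6st*, *Il11*, *Lif* and *Csf1*, among 24469 loci of 1 table of messenger RNA. The genes were picked by name, each symbol had 1 locus in the table, and no measured value entered the choice of the locus. RNA-Seq was done on 6 libraries of MPCs, mouse podocytes of a conditionally immortalized line that multiplied at 33 °C with interferon gamma and differentiated for 10 days at 37 °C without it. All cells were starved for 12 h and then held for 12 h in high glucose (HG, 25 mM), and the libraries formed 3 groups of 2. The first group had HG alone without pretreatment, the second had 1 h of pretreatment with 100 ng/mL wild-type FGF1 (rFGF1WT), and the third had the same with rFGF1ΔHBS. The last protein is an FGF1 with mutations in the site that binds heparan sulfate, and acts as a partial agonist of the FGF receptors. Cells at normal glucose are not analysed here, and every difference below is between cells that all had HG. The labels number the libraries of a group without saying that they came from separate cultures, so p-values measure the spread between these libraries only, which may be technical.

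IL-33, encoded by *Il33*, is a cytokine of the IL-1 family that is stored in the nucleus of epithelial, endothelial and stromal cells and released when they are damaged. It signals through ST2, encoded by *Il1rl1*, together with the accessory receptor IL1RAP, and the adaptor MyD88 then leads to NF-κB. *Il1r1* encodes the receptor of IL-1 itself, and *Il17rb* a receptor of IL-17B and of IL-25, which like IL-33 drives type 2 immune responses. IL-6, IL-11 and LIF all signal through gp130, encoded by *Il6st*, each with a receptor chain of its own, such as IL-6 receptor alpha from *Il6ra*, and activate JAK kinases and STAT3. CSF1, the product of *Csf1*, binds the receptor CSF1R and keeps macrophages alive. Its place among the 10 genes is by inflammatory function, since it belongs to neither family.

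The sequences below belong to *Il33* and *Il17rb*, the only members whose levels passed the statistical test and, as given further on, in opposite directions. *Il33* lies on the + strand of chromosome 19 (GRCm38, GENCODE M21) from 29925114 to 29960718, and *Il17rb* on the - strand of chromosome 14 from 29996135 to 30008896. The table lists 3 transcripts of *Il33*, of 2537, 377 and 2544 bases, of which the first pair start together and the last starts downstream at 29945790. Its single value therefore sums the output of both starts. RefSeq gives a promoter at each start, and the 250 bases upstream of each start (GRCm38.p6) were as follows, with capitals for matches to 1 of 5 motifs.
Il33 upstream start, chr19:29924863-29925112, + strand: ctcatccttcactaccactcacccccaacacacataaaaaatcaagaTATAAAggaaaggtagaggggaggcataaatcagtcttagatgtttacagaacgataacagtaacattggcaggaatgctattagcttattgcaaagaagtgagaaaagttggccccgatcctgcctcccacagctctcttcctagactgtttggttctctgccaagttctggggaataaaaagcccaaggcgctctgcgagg
Il33 downstream start, chr19:29945540-29945789, + strand: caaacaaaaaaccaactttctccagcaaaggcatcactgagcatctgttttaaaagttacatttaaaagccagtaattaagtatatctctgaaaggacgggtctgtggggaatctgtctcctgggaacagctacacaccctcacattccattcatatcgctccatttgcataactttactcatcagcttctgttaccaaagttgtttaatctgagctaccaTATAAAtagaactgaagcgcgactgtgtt
Il17rb, chr14:30008897-30009146, - strand: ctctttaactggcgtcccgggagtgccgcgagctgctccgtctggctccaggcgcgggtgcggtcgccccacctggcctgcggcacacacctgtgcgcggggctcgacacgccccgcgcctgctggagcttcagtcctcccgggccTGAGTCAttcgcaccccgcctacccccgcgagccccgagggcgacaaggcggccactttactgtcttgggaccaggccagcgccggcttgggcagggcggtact

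The motifs were TATAAA for a TATA box, TGANTCA for AP-1 factors, GGAAGT for ETS factors, TTCNNNGAA for STAT factors and a narrow form of the NF-κB consensus, each searched on both strands. The capitals in both *Il33* windows are TATA matches, at -203 to -198 before the upstream start and at -29 to -24 before the downstream start, counted from the first transcribed base. The capitals in the *Il17rb* window are an AP-1 match at -104 to -98. Of 32851 mouse promoters of this length, 12.4% held a TATA match and 6.75% an AP-1 match. All 10 members had an entry, with 14 starts in all. An AP-1 match stood before 4 of the 14 starts (of *Il17rb*, *Il6*, *Il11* and *Lif*). An ETS match stood before 4 of the 14 (of *Il1rl1*, *Il1r1*, *Il6ra* and *Lif*), against 19.7% of promoters. An NF-κB match stood before 2 of the 14 (of *Il6* and *Csf1*), against 1.41%. A STAT match was in 0 of the 14 windows, against 7.02% of promoters. No matches overlapped in these windows, and a match of letters is not a measured binding site.

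The study lists PCR primers for both genes, and they show which transcripts such an assay reads. For *Il33* the pair matched all 3 listed transcripts and spanned 120 bases of coding sequence across 2 exons. For *Il17rb* the pair matched 4 of 6 listed transcripts, 2 of them protein coding, and spanned 109 coding bases from exon 1 to exon 3.
Il33 forward primer: tccaactccaagatttccccg
Il33 reverse primer: catgcagtagacatggcagaa
Il17rb forward primer: agccgactattcagtgtggc
Il17rb reverse primer: gtcttgacgagttccacttgg

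Levels are FPKM, the fragments of a locus scaled to its transcript length and to the mapped fragments of the library, as the authors deposited them. FPKM summed to between 179594 and 185168 per library. Of the low values of loci with 1 transcript, 25.7% to 26.9% lay on steps of 0.5, 1 or 2 units, against 2.61% to 2.74% on shifted steps. With 1 unit taken as 1 fragment the libraries held 22300000 to 23200000 fragments, so their depth was nearly equal, and the fragments given below rest on that unit. Pearson's r of log2(FPKM + 1) across the tested loci was 0.916 to 0.923 between replicates and 0.895 to 0.924 between groups, so replicates were hardly more alike than libraries of different groups. Of 16 podocyte markers, 8 had a mean FPKM of at least 1, *Actn4*, *Cd2ap* and *Podxl* among them. The defining podocyte genes *Wt1* and *Lmx1b* were at or near 0 (at most 0.0731 in any library) and *Nphs1* at 0.618 to 0.942, so on these genes the line is not a full copy of the mature cell. The endothelial list had 0 of 8 markers at a mean FPKM of 1 or more, its highest being *Flt1* at 0.252 to 0.592. Of 12 leukocyte and macrophage markers 8 had a mean under 0.1 FPKM over the 6 libraries, *Ptprc* and *Adgre1* included, while their summed level was 70.0 to 73.8 with HG, 73.6 to 76.7 with rFGF1WT and 75.7 to 82.7 with rFGF1ΔHBS. Most of that sum was 1 locus that merges *Cd68* with the translation factor gene *Eif4a1*. Of 10 mesangial and fibroblast markers, 4 were tested and 0 passed by limma (4 and 3 had an unadjusted p under 0.05 against HG), with *Pdgfrb* highest at 26.1 to 32.7. Of the T cell, ILC2 and mast cell markers, 3 of 10 had a locus, and the highest was *Gata3* at 2.17 to 3.10. Fewer cells of a type and less RNA per cell cannot be told apart in such bulk libraries.

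The 10 genes differed widely in level. With HG alone, *Il6st* (76.8 ± 1.29 FPKM, SD, n = 2) and *Csf1* (70.5 ± 10.4) stood highest and their libraries overlapped. *Il1r1* followed at 17.2 ± 0.0582, then *Il1rl1* at 4.98 ± 0.820 and *Lif* at 3.72 ± 0.0684, each apart from its neighbours. *Il17rb*, *Il6ra* and *Il33* came next, between 0.390 and 0.693, and neighbours in this order overlapped. *Il6* and *Il11* were lowest, both near nothing. After either FGF1 protein *Il33* moved from the eighth place in the order to the sixth and *Il17rb* from the sixth to the eighth, while *Csf1*, *Il6st* and *Il1r1* kept the top places.

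**Figure D1:**
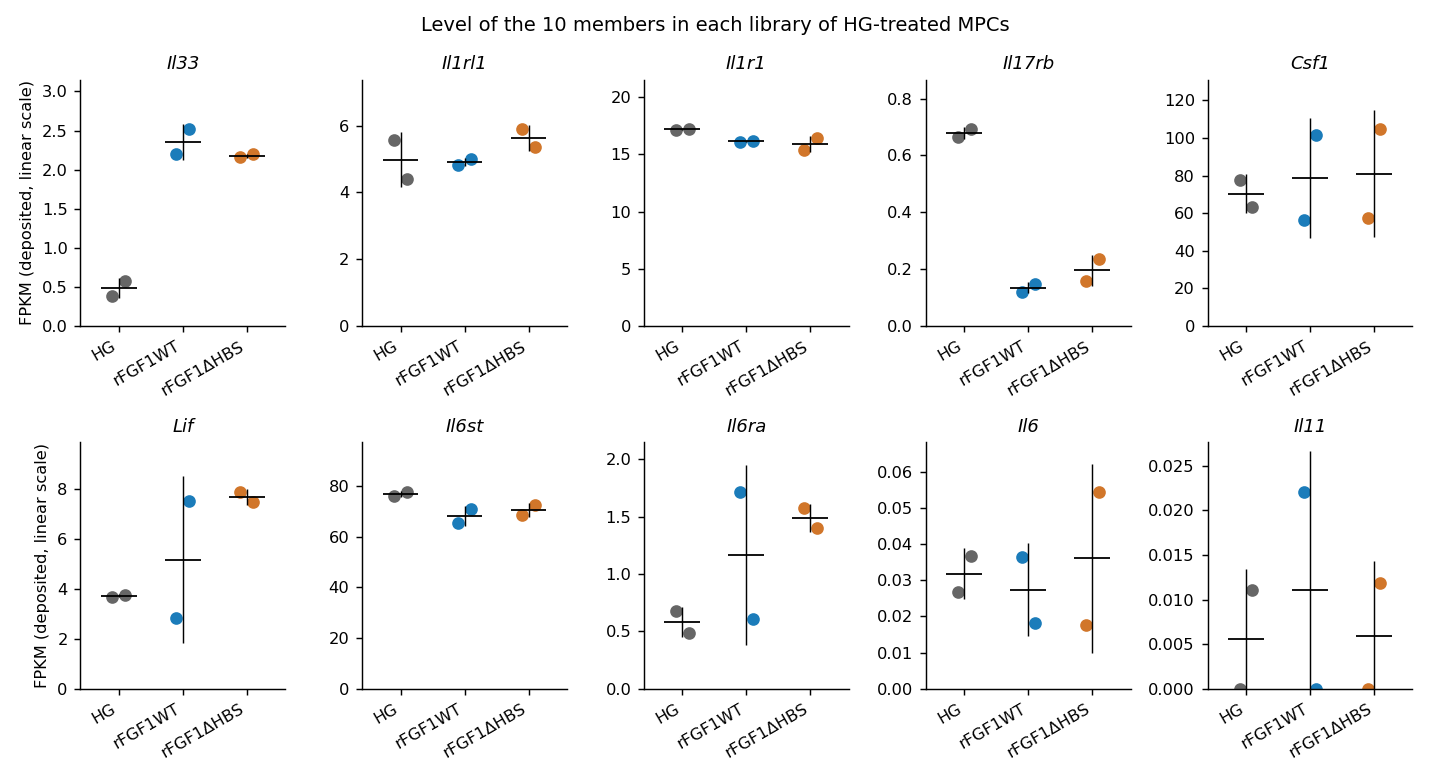
FPKM of each of the 10 genes (y axis, linear, starting at 0, a scale of its own per panel) in the 2 libraries of each group (points), with the mean (horizontal line) and SD (vertical line, not drawn below 0). *Il33* lies higher and *Il17rb* lower in all 4 libraries with FGF1, and *Il6* and *Il11* stay under 0.06 FPKM. *Lif*, *Il6ra* and *Csf1* are split between the rFGF1WT replicates, and *Csf1* also between those of rFGF1ΔHBS.

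Differences were tested with limma on log2(FPKM + 1) for the 10562 loci that averaged 1 FPKM or more, which 7 of the 10 members reached. A gene is said to have passed at a Benjamini-Hochberg adjusted p under 0.05, and differences are given on the log2(FPKM + 1) scale, which understates those of low genes. Counts of list genes at an unadjusted p under 0.05, above and below, come without the share of all tested loci at that limit. They are not read as a result. Such p-values were common, since an unadjusted limma p of 0.0465 (*Il6st* with rFGF1WT) became 0.193 after adjustment. Both proteins were compared with the same pair of HG libraries, so the results against HG are not independent of each other. With rFGF1WT 1 of the 7 tested members passed, *Il33*, against a background of 6.19% of all tested loci in either direction. With rFGF1ΔHBS 1 of 7 passed, again *Il33*, against a background of 6.26%. With a single call each, the members as a group are not set apart from the table. The filter also matters, since *Il33* reached the mean of 1 FPKM only through its FGF1 libraries, its HG mean being 0.481. *Il17rb*, which was highest with HG at a mean of 0.679, did not reach it. *Il33* was also past a 2-fold limit on this scale, which 1.01% and 0.899% of loci passed against HG. The study states its 2-fold limit for the fold change in expression, which is another measure. Ratios of mean FPKM are given below for *Il33* and *Il17rb*. The median difference of the 7 was 0.11 with rFGF1WT and 0.15 with rFGF1ΔHBS, beside -0.0402 and -0.0358 over all tested loci. In the fit without a filter, which takes in all 10, 2 members passed with either protein, *Il33* upward and *Il17rb* downward, against 1.66% and 1.58% of 24469 loci. There the limma adjusted p of *Il33* was 0.0418 with rFGF1WT and 0.0477 with rFGF1ΔHBS.

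**Figure D2:**
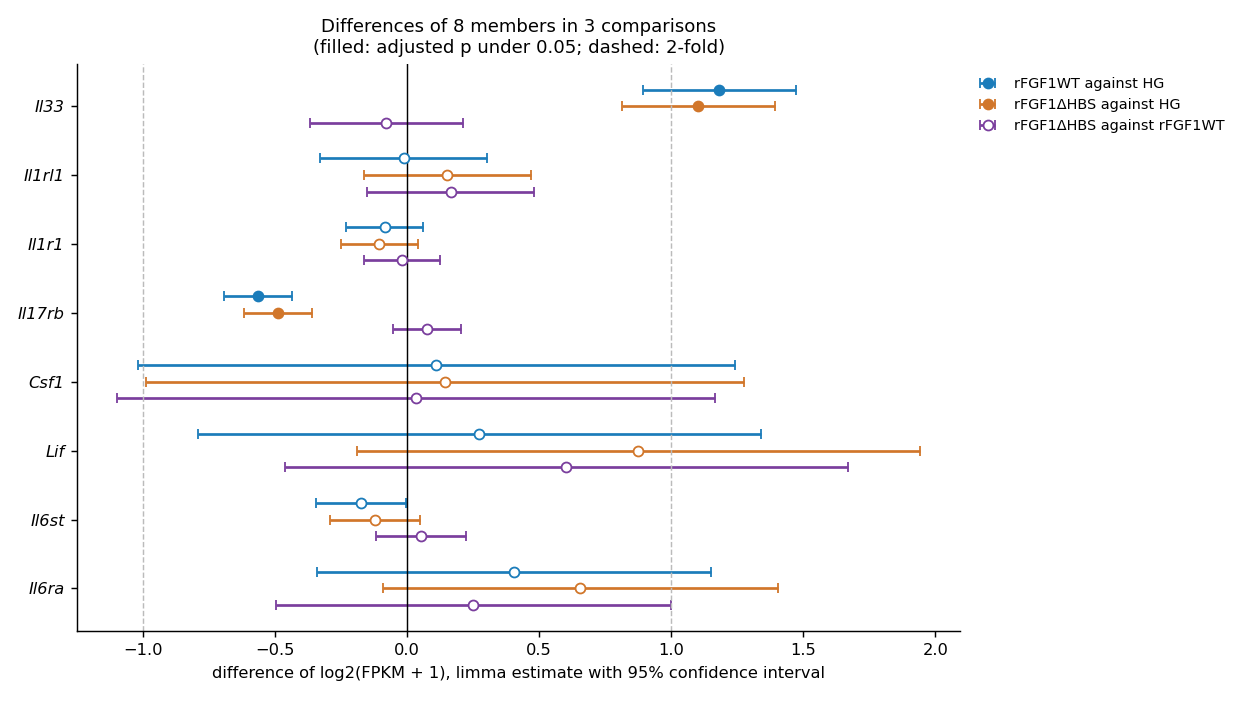
Differences of log2(FPKM + 1) with 95% confidence intervals (x axis) for 8 genes (y axis) in 3 comparisons (colours), from limma over all 6 libraries, with *Il17rb* from the fit without a filter. Filled points passed the test and dashed lines mark 2-fold on this scale, not as ratios of FPKM. *Il33* lies at 1.18 and 1.10 against HG, *Il17rb* at -0.56 and -0.49, and all intervals between the 2 proteins include 0.

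*Il33* was the member that rose. Its level was 0.390 and 0.572 FPKM with HG, 2.19 and 2.52 with rFGF1WT, and 2.16 and 2.20 with rFGF1ΔHBS. The 4 libraries with FGF1 stood together, all well above both HG libraries, and the ratio of group means was 4.90 with rFGF1WT and 4.53 with rFGF1ΔHBS. The difference was 1.18 (SE 0.108, 95% confidence interval 0.89 to 1.47, limma adjusted p = 0.0166) with rFGF1WT and 1.10 (0.81 to 1.39, adjusted p = 0.0197) with rFGF1ΔHBS. At the longest listed transcript these levels correspond to 22.9 and 32.6 fragments with HG and to 125 to 145 with FGF1, so the HG level was low but counted. Between the 2 proteins *Il33* differed by -0.08 (-0.37 to 0.21, adjusted p = 0.945). With only 2 libraries per group the calls were narrow, and leaving out any 1 of the 6 libraries put them at or past the limit. The limma adjusted p was then 0.05 (without HG replicate 2) to 0.0656 (without rFGF1WT replicate 2) with rFGF1WT. With rFGF1ΔHBS it was 0.0518 (without rFGF1WT replicate 1) to 0.0829 (without rFGF1ΔHBS replicate 2), while the difference stayed between 1.01 and 1.27 in both.

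*Il1rl1*, the gene of the IL-33 receptor ST2, did not pass the test that its ligand passed. It measured 5.56 and 4.40 FPKM with HG, 4.82 and 4.99 with rFGF1WT, and 5.90 and 5.35 with rFGF1ΔHBS. The libraries with FGF1 fell among or close to those of HG, and the differences of -0.01 (-0.33 to 0.30) and 0.15 (-0.16 to 0.47) did not pass (adjusted p = 0.962 and 0.485 by limma). As ratios these intervals are 0.797 to 1.23 and 0.893 to 1.38, against 1.86 to 2.77 and 1.76 to 2.63 for *Il33* on the same scale. ST2 exists as a membrane receptor and as a soluble decoy made from other transcripts of the same gene, and the table gives 1 value for 5 transcripts (chromosome 1, 40429570 to 40465415), so the forms were not told apart. *Il1r1*, which lies 112.3 kb before it on the same strand (40225080 to 40317257), stood at 17.1 and 17.2 FPKM with HG, 16.1 and 16.2 with rFGF1WT, and 15.4 and 16.4 with rFGF1ΔHBS. All FGF1 libraries were below both HG libraries, but by little, and the differences of -0.08 (-0.23 to 0.06) and -0.10 (-0.25 to 0.04) did not pass (adjusted p = 0.408 and 0.326 by limma). Groups that do not overlap were common here, at 58.2% of tested loci with rFGF1WT and 57.3% with rFGF1ΔHBS.

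Around IL-33, the calls in its pathway were single genes, in a table where 6.19% and 6.26% of tested loci passed. Calls in the table as a whole also fell when a library was left out, from 654 to between 134 (without HG replicate 1) and 195 (without rFGF1WT replicate 2) with rFGF1WT. With rFGF1ΔHBS they fell from 661 to between 118 (without HG replicate 1) and 198 (without rFGF1WT replicate 1). Most of the 32 calls of listed genes were also lost when some library was left out. All 32 kept their direction, but this was bound to be so, since the compared groups of each did not overlap. It says nothing on how firm a call is, and many adjusted p-values of listed genes lie close to 0.05. Of 10 ligands of the IL-1 family 4 had a locus and 2 were tested, and their medians of 0.21 and 0.26 are the midpoints of opposite values. *Il18*, the other tested ligand and a cytokine that is stored as a precursor, measured 2.23 and 2.55 FPKM with HG, 0.877 and 1.13 with rFGF1WT, and 1.15 and 1.37 with rFGF1ΔHBS. It fell by 0.76 with rFGF1WT (limma adjusted p = 0.0437) and differed by -0.59 with rFGF1ΔHBS (adjusted p = 0.0694), which did not pass. Of the 9 receptors of the family 3 were tested and 0 passed or had an unadjusted p under 0.05 by limma, with medians of -0.06 and -0.10. The third of them, *Il1rap*, the accessory chain of the IL-33 and IL-1 receptors, was at 2.51 to 2.95 FPKM in 5 libraries and at 0.983 in rFGF1ΔHBS replicate 1. Of 17 adaptors and kinases below these receptors 16 were tested, and by limma 1 passed with rFGF1WT and 0 with rFGF1ΔHBS (1 had an unadjusted p under 0.05), with medians of -0.08 in both. The call was *Irak1*, a kinase recruited by MyD88, at 8.68 and 9.91 FPKM with HG, 13.4 and 13.2 with rFGF1WT, and 11.8 and 11.8 with rFGF1ΔHBS (0.48, limma adjusted p = 0.0458, and 0.31, adjusted p = 0.0960). Of 11 NF-κB subunits and inhibitors 10 were tested and 0 passed by limma with either protein (2 had an unadjusted p under 0.05 with each), with medians of -0.01 and -0.03. Their most abundant gene, *Nfkb2*, was at 43.2 to 47.8 FPKM in all 6 libraries.

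*Il17rb* fell. Its level was 0.664 and 0.693 FPKM with HG, 0.122 and 0.149 with rFGF1WT, and 0.158 and 0.235 with rFGF1ΔHBS. Both HG libraries stood far above the others, and the group means with rFGF1WT and rFGF1ΔHBS were 0.199 and 0.290 of the HG mean. Its mean over all libraries was under 1 FPKM, so its test comes from the fit without a filter, where it fell by 0.56 with rFGF1WT (95% confidence interval -0.69 to -0.44, limma adjusted p = 0.0277) and by 0.49 with rFGF1ΔHBS (-0.62 to -0.36, adjusted p = 0.0374). At its longest transcript the values are worth 39.4 and 40.0 fragments with HG and 6.99 to 13.7 with FGF1, so counting error is a large part of the lower levels. The gene lost its call with rFGF1WT when any 1 library was left out (adjusted p = 0.0671 without rFGF1ΔHBS replicate 2 to 0.0923 without rFGF1WT replicate 1). With rFGF1ΔHBS it kept the call only without rFGF1ΔHBS replicate 2 (adjusted p = 0.0475), the others giving 0.0632 (without rFGF1ΔHBS replicate 1) to 0.106 (without either rFGF1WT library). Between the proteins *Il17rb* differed by 0.08 (-0.05 to 0.20, adjusted p = 0.919). The study names *Il17rb* among inflammatory genes of its RNA-Seq that it reports as induced by HG and largely abrogated by treatment. The fall here, in the data of that RNA-Seq, has the same direction. The study lists *Il17rb* and *Il33* for real-time PCR, so the choice of both is not independent of the values. From the PCR it reports inflammatory signals as inhibited by both proteins, and its text gives no value for *Il33*. In the libraries here *Il33* was higher with FGF1. Of 11 ligands and receptors of the IL-17 family 8 had a locus, 3 were tested and 0 passed by limma (3 and 2 had an unadjusted p under 0.05), with medians of 0.22 and 0.09. *Il17ra*, which encodes the chain that pairs with IL-17RB, measured 3.35 and 3.74 FPKM with HG, 4.18 and 4.44 with rFGF1WT, and 3.78 and 3.87 with rFGF1ΔHBS (adjusted p = 0.178 and 0.543 by limma). The most abundant of the family was *Il17rc*, at 29.2 to 34.6 FPKM in a locus it shares with *Creld1*.

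The ligand genes *Il6* and *Il11* were at the floor of the measurement. *Il6* measured 0.0268 and 0.0368 FPKM with HG, 0.0364 and 0.0183 with rFGF1WT, and 0.0176 and 0.0545 with rFGF1ΔHBS. At the longer of its 2 transcripts, 3 fragments are worth 0.0564 FPKM, so no library held more than that number. *Il11* was listed at 0 in 3 libraries and at 0.0111, 0.0221 and 0.0118 FPKM in HG replicate 2, rFGF1WT replicate 1 and rFGF1ΔHBS replicate 2, against 0.0678 for 3 fragments. A difference between groups in either gene was not detectable at this depth, and no fold is given.

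*Lif* was the one IL-6 family ligand among the members with a clear level. It measured 3.67 and 3.77 FPKM with HG, 2.82 and 7.52 with rFGF1WT, and 7.88 and 7.45 with rFGF1ΔHBS. Both rFGF1ΔHBS libraries were at about 2.06 times the HG mean, while the rFGF1WT pair split, 1 library below HG and 1 level with rFGF1ΔHBS. Such a split between replicates, a ratio of 2.67, was found or exceeded at 5.25% of tested loci in that group. The differences were 0.27 (-0.79 to 1.34, limma adjusted p = 0.714) with rFGF1WT and 0.88 (-0.19 to 1.94, adjusted p = 0.273) with rFGF1ΔHBS, and neither passed. The difference with rFGF1ΔHBS passed without rFGF1WT replicate 1 (adjusted p = 0.0442) or replicate 2 (0.0460), and with rFGF1WT the value was 0.85 without replicate 1 and -0.31 without replicate 2. Between the proteins *Lif* differed by 0.60 (-0.46 to 1.67, adjusted p = 0.905), and by 1.18 (adjusted p = 0.0441) without rFGF1WT replicate 2 and 0.02 without replicate 1. With all 6 libraries *Lif* therefore had no call. The differences with rFGF1WT and between the proteins turn on which rFGF1WT library is kept. That of rFGF1ΔHBS against HG is the same without either, but the spread it is tested against, shared over all groups, changes. Of the 10 ligands of the IL-6 family 8 had a locus, 4 were tested and 0 passed by limma (0 and 1 had an unadjusted p under 0.05), with medians of 0.23 and 0.21. The most abundant was *Cntf*, whose 8.75 to 27.2 FPKM belong to a locus merged with the zinc finger gene *Zfp91*.

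*Il6st*, the gene of gp130, was among the most abundant members and slightly lower with FGF1. It measured 75.9 and 77.7 FPKM with HG, 65.2 and 70.9 with rFGF1WT, and 68.5 and 72.6 with rFGF1ΔHBS. No FGF1 library reached the HG range, yet the differences were small, -0.17 (-0.34 to -0.0042, limma adjusted p = 0.193) and -0.12 (-0.29 to 0.05, adjusted p = 0.327), and did not pass. *Il6ra*, the chain that binds IL-6, measured 0.678 and 0.488 FPKM with HG, 1.72 and 0.608 with rFGF1WT, and 1.58 and 1.40 with rFGF1ΔHBS. Here too the rFGF1WT pair split, with 1 library inside the HG range, and a ratio of 2.82 or more between that group's replicates was found at 4.95% of tested loci. It was the high library of *Il6ra*, rFGF1WT replicate 1, that was the low library of *Lif*. The *Il6ra* differences of 0.40 (-0.34 to 1.15) and 0.66 (-0.09 to 1.40) did not pass (adjusted p = 0.436 and 0.249 by limma). Without rFGF1WT replicate 1 the first was 0.03, and without replicate 2 it was 0.78.

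Of the 8 receptors of the IL-6 family 6 were tested, and by limma 0 passed with rFGF1WT (2 had an unadjusted p under 0.05). With rFGF1ΔHBS 1 passed, where 6.26% of all tested loci did. The medians were 0.31 and 0.28, with 4 of the 6 higher with rFGF1WT and 3 with rFGF1ΔHBS. They take in *Il31ra*, whose locus is merged with *AC154767.3* and whose HG libraries split, at 2.82 and 16.2 FPKM. Its differences of 1.43 and 1.19 did not pass (limma adjusted p = 0.324 and 0.398). The call was *Osmr*, the receptor chain of oncostatin M, which also pairs with gp130. It measured 4.40 and 4.52 FPKM with HG, 5.93 and 6.92 with rFGF1WT, and 7.24 and 7.19 with rFGF1ΔHBS. All 4 FGF1 libraries were above HG, and *Osmr* rose by 0.59 with rFGF1ΔHBS (limma adjusted p = 0.0366) and differed by 0.44 with rFGF1WT (adjusted p = 0.0661). Oncostatin M itself was listed at 0 to 0.0196 FPKM.

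Below gp130, *Stat3*, the gene of its main transcription factor, was at 13.7 to 18.5 FPKM, with differences of -0.02 and 0.06 that did not pass (limma adjusted p = 0.966 and 0.886). Of all tested loci 6.19% passed with rFGF1WT and 6.26% with rFGF1ΔHBS. Of 16 feedback inhibitors 15 were tested, with medians of 0.07 and 0.02, and 5 and 6 had an unadjusted p under 0.05 by limma. With each protein 1 passed. This was *Ptpn6*, a phosphatase that removes phosphate from JAKs and receptors, at 10.0 FPKM in both HG libraries, 13.8 and 14.0 with rFGF1WT, and 12.6 and 13.7 with rFGF1ΔHBS (0.43, limma adjusted p = 0.0340, and 0.36, adjusted p = 0.0494). *Socs3*, the classical feedback gene of gp130, measured 6.85 and 7.56 FPKM with HG, 8.80 and 9.05 with rFGF1WT, and 8.36 and 9.93 with rFGF1ΔHBS. Its groups were apart but the differences of 0.28 and 0.30 did not pass (adjusted p = 0.194 and 0.165 by limma).

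Of 20 genes known as STAT3 targets 15 were tested. By limma 7 had an unadjusted p under 0.05 with each protein, a limit for which the share of all tested loci is not given. The 15 had medians of 0.28 and 0.33. With rFGF1WT 3 passed and with rFGF1ΔHBS 2, all of them higher, beside 6.19% and 6.26% of all tested loci in either direction. *Ccnd1*, which encodes cyclin D1, rose from 5.53 and 5.05 FPKM with HG to 40.2 and 39.5 with rFGF1WT and 39.1 and 42.5 with rFGF1ΔHBS (2.70, limma adjusted p = 0.00145, and 2.73, adjusted p = 0.00161). *Myc* measured 7.11 and 9.52 FPKM with HG, 15.9 and 18.8 with rFGF1WT, and 16.0 and 16.5 with rFGF1ΔHBS, which passed with rFGF1WT (0.98, limma adjusted p = 0.0457) and not with rFGF1ΔHBS (0.90, adjusted p = 0.0531). *Lcn2*, the gene of the iron carrier NGAL that is known as a marker of kidney injury, rose from 1.83 and 1.37 FPKM to 5.25 and 4.70 and to 3.89 and 4.60 (1.20, limma adjusted p = 0.0219, and 1.01, adjusted p = 0.0302). *Ccnd1* and *Myc* are also known targets of growth factor signalling through ERK. Of 10 genes known to respond to FGF, 5 passed with rFGF1WT and 4 with rFGF1ΔHBS, all higher, with medians of 1.24 and 1.32. Among them *Etv5* rose by 2.56 and 2.61 and *Phlda1* by 1.31 with rFGF1ΔHBS, and *Spry2* by 0.83 with rFGF1WT (limma adjusted p = 0.0492) and differed by 0.71 with rFGF1ΔHBS (adjusted p = 0.0648). For comparison, 1 of 11 housekeeping genes passed with rFGF1WT, *Actb* (0.86, limma adjusted p = 0.0450), and 0 with rFGF1ΔHBS (3 had an unadjusted p under 0.05), with medians of 0.07 in both. The podocyte list had 2 calls with rFGF1WT and 1 with rFGF1ΔHBS among 8 tested, *Kirrel* upward (1.24 with rFGF1WT, limma adjusted p = 0.0483, and 0.88, adjusted p = 0.0899) and *Mme* downward (-0.67 and -0.65, adjusted p = 0.0435 and 0.0462), with medians of 0.27 and 0.11.

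**Figure D3:**
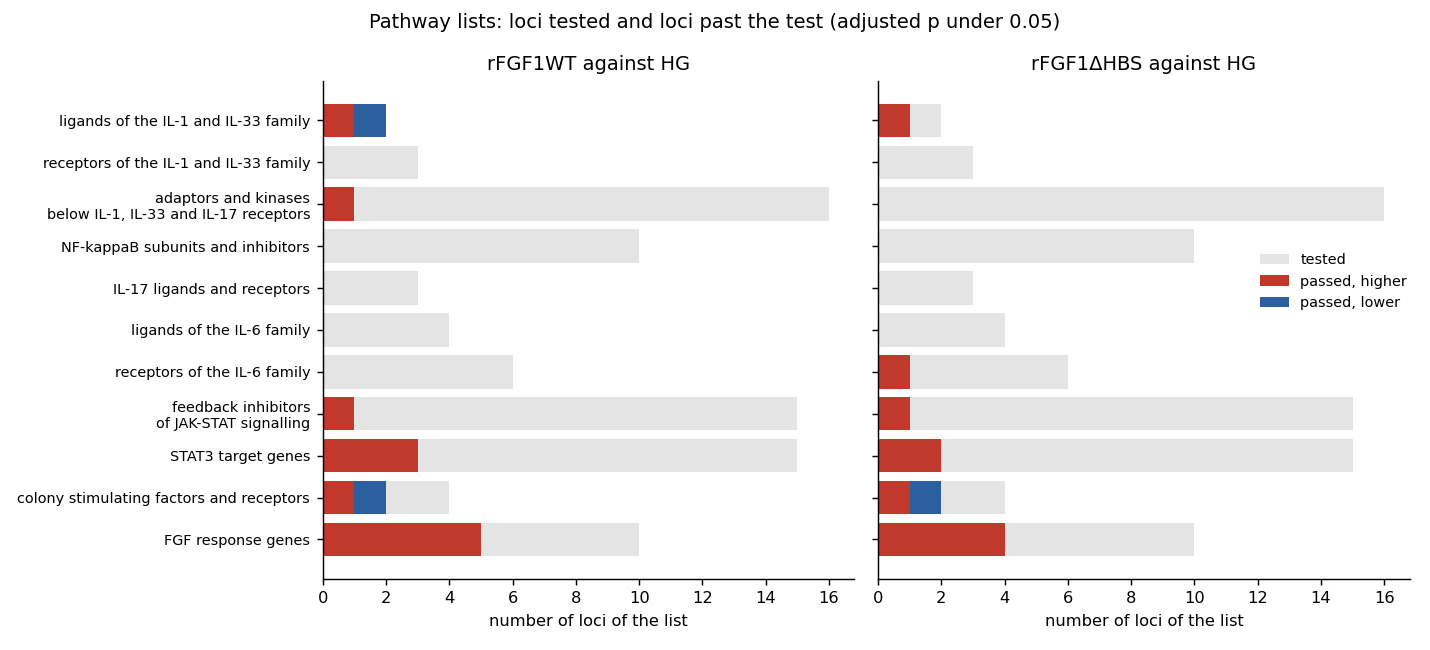
Number of loci tested (grey bars, x axis from 0) and number past the test, higher (red) or lower (blue), in each of 11 pathway lists (y axis), for each protein against HG. Most grey bars of the cytokine lists hold 0 or 1 coloured locus, and the list of FGF response genes holds 5 and 4.

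*Csf1* was as abundant as *Il6st* but split within both FGF1 groups. It measured 77.8 and 63.1 FPKM with HG, 56.4 and 101.5 with rFGF1WT, and 57.2 and 104.8 with rFGF1ΔHBS. In each FGF1 pair 1 library lay below both HG libraries and 1 above both, so the groups overlapped fully. The ratio between replicates, 1.80 and 1.83, was reached by 8.73% and 8.19% of tested loci in these groups. The differences of 0.11 (-1.02 to 1.24, limma adjusted p = 0.900) and 0.14 (-0.99 to 1.27, adjusted p = 0.875) did not pass, and as ratios their intervals run from 0.493 to 2.36 and from 0.504 to 2.42. Its partners were steadier. *Il34*, the gene of the other ligand of CSF1R, measured 1.94 and 2.08 FPKM with HG, 5.75 and 6.76 with rFGF1WT, and 6.75 and 6.63 with rFGF1ΔHBS, and rose by 1.27 and 1.35 (limma adjusted p = 0.0123 and 0.0122).

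*Csf1r*, the receptor gene, measured 9.56 and 10.7 FPKM with HG, 3.21 and 3.68 with rFGF1WT, and 3.94 and 3.76 with rFGF1ΔHBS. It fell by 1.32 and 1.19 (limma adjusted p = 0.0114 and 0.0140), with no overlap between FGF1 and HG libraries. *Csf1r* marks macrophages, and of the 12 leukocyte and macrophage markers 3 were tested. Beside *Csf1r* these were *Cd14*, at 4.35 to 12.4 FPKM with groups that overlapped (-0.45 and -0.34, limma adjusted p = 0.610 and 0.705), and the locus of *Cd68* with *Eif4a1*, which rose by 0.32 and 0.37 (limma adjusted p = 0.0496 and 0.0363). The defining leukocyte and macrophage genes *Ptprc* and *Adgre1* were at 0.0548 FPKM or less in all libraries. Of the 8 colony stimulating factors and receptors 4 were tested, with medians of 0.31 and 0.21. *Il34* and *Csf1r* were the calls with both proteins, where 6.19% and 6.26% of all tested loci passed. Without HG replicate 1 *Il34* lost its calls (limma adjusted p = 0.0639 and 0.0631), as it did without HG replicate 2 (0.0538 and 0.0543), and the call with rFGF1ΔHBS went without rFGF1ΔHBS replicate 1 (0.0601) or 2 (0.0577). *Csf1r* lost the call with rFGF1WT without HG replicate 2 (0.0510), and that with rFGF1ΔHBS without HG replicate 1 (0.0583) or 2 (0.0602) and without rFGF1ΔHBS replicate 1 (0.0634) or 2 (0.0686).

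**Figure D4:**
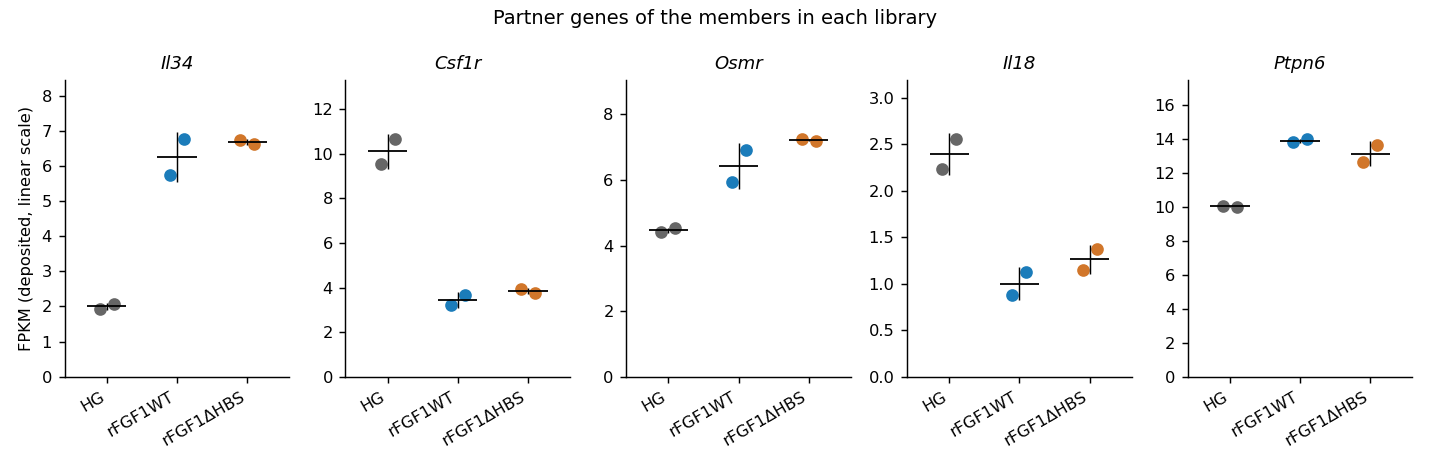
FPKM (y axes, linear, starting at 0) of 5 partner genes of the members in the 2 libraries of each group (points), with mean (horizontal line) and SD (vertical line). *Il34*, *Osmr* and *Ptpn6* are higher and *Csf1r* and *Il18* lower in all 4 libraries with FGF1 than in both HG libraries.

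The 2 FGF1 proteins, which differ by the mutations in the heparan sulfate-binding site, were compared at the same dose and time over the 7 tested members. By limma 0 of the 7 passed, against a background of 0.549% of loci, and 0 of 7 had an unadjusted p under 0.05. The fit without a filter gave 0 of 10, against 0.208%. Among the 7 the interval of the difference was narrowest for *Il1r1* (-0.16 to 0.13) and *Il6st* (-0.12 to 0.22), and about 0.3 on either side for *Il33* and *Il1rl1* (-0.15 to 0.48). For *Lif* and *Csf1* (-1.10 to 1.17) the interval held differences of 2-fold, and for *Il6ra* it ended just short of that, at -0.50 to 1.00. *Il1rl1* was the only tested member whose rFGF1ΔHBS libraries lay apart from those of rFGF1WT, higher by 0.16 (adjusted p = 0.905), in a comparison where 34.5% of tested loci had groups apart.

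The pattern of *Il33* across the 6 libraries was compared with that of 10210 named loci above 0 in all of them. The measure was the root mean square difference of log2(FPKM + 1) after centring each gene. The nearest was *Cyr61*, which encodes the matrix protein CCN1, at a distance of 0.0589. It measured 49.0 and 50.4 FPKM with HG, 110.5 and 119.7 with rFGF1WT, and 110.9 and 118.2 with rFGF1ΔHBS. The second was *Cd9*, a gene of a membrane protein of the tetraspanin family, at 0.0733, with 57.1 and 62.2, 138.0 and 133.8, and 134.5 and 141.2 FPKM. Both were far more abundant than *Il33*, and the likeness is of the steps between groups on this scale. As ratios of mean FPKM to HG the rise of *Il33*, at 4.90 with rFGF1WT and 4.53 with rFGF1ΔHBS, was larger than that of either gene.

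**Figure D5:**
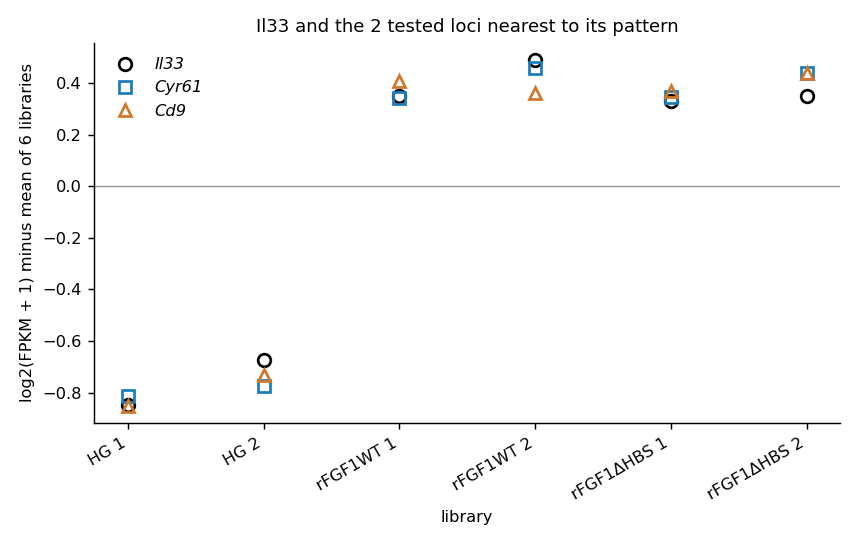
log2(FPKM + 1) minus the mean of the 6 libraries (y axis) for *Il33* (circles), *Cyr61* (squares) and *Cd9* (triangles) in each library (x axis). All 3 genes lie below their mean in both HG libraries and above it in the 4 libraries with FGF1.

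In the pathway annotation that the authors deposited beside the FPKM, cytokine-cytokine receptor interaction named 8 of the 10 members, all but *Il33* and *Il1rl1*, and JAK-STAT signaling named 5 (*Il6*, *Il6ra*, *Il6st*, *Il11* and *Lif*). None of these passed in the filtered fit. Of the 82 tested loci of the first pathway, 6 passed higher and 7 lower with rFGF1WT, and 9 higher and 5 lower with rFGF1ΔHBS, beside 6.19% and 6.26% of all tested loci in either direction. Of the 75 tested loci of the second, 5 passed higher and 0 lower with rFGF1WT, and 5 higher and 2 lower with rFGF1ΔHBS.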

How the data were processed

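Messenger RNA of 6 libraries of MPCs, in 3 groups of 2, was read from 1 deposited table. Per the authors' methods, poly(A) RNA was sequenced from both ends, and the deposited FPKM were summarized with edgeR. The submitters' processing notes list Bowtie 0.12.2, HISAT2 2.0, StringTie 1.3.0 and mm8, without their roles. Whether strand was used is not given in the sources used here, and 519 loci merge several genes. Samples were grouped by their labels, which say which of the columns T1 and T2 is which protein. The colours of 1 plot in the study seem to name the proteins the other way round, which was not settled, and if so all values of rFGF1WT and rFGF1ΔHBS would change places.

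Values were taken to log2(FPKM + 1) and entered 1 limma fit (version 3.58.1, R 4.3.3) with a trend, all 6 libraries, 3 comparisons and 3 residual degrees of freedom. Loci that averaged 1 FPKM or more were tested and p-values adjusted over all of them. Members under that mean came from the fit without a filter. An exact permutation test of 2 against 2 cannot give a p under 0.333 and was not used. The fit was tested on simulated data. Tables and plots used Python 3.11.15, pandas 2.3.3, numpy 2.4.6 and matplotlib 3.10.9.

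The 10 members and the gene lists were chosen with earlier results of these data known. Named genes are the members, up to 3 genes per list past the test by mean FPKM or else the most abundant gene, and the 2 loci most like *Il33*. *Il1rap*, *Cd14*, *Cd68*, *Il17ra*, *Il31ra*, *Stat3*, *Socs3*, oncostatin M and the podocyte and macrophage markers at or near 0 were added after their values were seen. The list of JAK and STAT genes is not reported here. Positions come from GENCODE M21 (GRCm38) and promoters from RefSeq (GRCm38.p6), neither of which is the build in the notes. Low values within 2% of a step of 0.5, 1 or 2 units, 25.7% to 26.9% of them, gave the fragments per library, against 2.61% to 2.74% on shifted steps. Values of fragments cover counting error only.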

Additional observations from a re-analysis of the deposited data

How the results depend on the processing

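Each result was recomputed with a pseudocount of 0.1, no filter, a mean FPKM of at least 5, only loci above 0 in all libraries, a mean of at least 0.1 with a pseudocount of 0.1, robust empirical Bayes, only the 4 libraries compared, scaling by median ratios, quantile normalization, a replicate block, and each library left out. The number of members past the test, 1 against HG with either protein, was 2 with no filter for both, 2 with the mean of 0.1 and pseudocount of 0.1 for rFGF1WT, and 0 with the mean of at least 5 for both, where *Il33* is not tested. It was 0 for rFGF1WT with only 4 libraries and 0 for both under the replicate block. With 4 libraries *Il33* stood at 1.18 (adjusted p = 0.0524) and 1.10 (0.0523), and *Lif* passed with rFGF1ΔHBS at 0.876 (0.0457). *Il17rb* lost its calls at -1.73 (0.0727) and -1.40 (0.103) with a pseudocount of 0.1, at -1.40 (0.0559) with rFGF1ΔHBS at the mean of 0.1, at -0.565 (0.0736) and -0.489 (0.111) with 4 libraries, and at -0.565 (0.0586) and -0.489 (0.0726) with robust empirical Bayes. The *Il1rl1* difference with rFGF1WT turned to 0.0224 under median-ratio scaling and 0.0425 under quantile normalization, both within its interval, and both scalings moved the median of all loci by less than 0.1. Except where a filter removes the gene, the cause was not tested.

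The labels do not say whether libraries of the same number were handled together. The correlations of deviations between same-numbered libraries were -0.021, 0.098 and -0.047. Such values show no strong shift shared over all tested loci, but they cannot settle whether the samples were paired. Under the replicate block, which leaves fewer residual degrees of freedom, *Il33* was 1.18 (0.0665) and 1.10 (0.0713) and *Il17rb* -0.565 (0.113) and -0.489 (0.134), and the members past the test were 0.

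With each library left out in turn, members past the test numbered 0 with rFGF1WT and 0 to 1 with rFGF1ΔHBS, the 1 being *Lif* and not *Il33*, and 0 to 1 between the proteins. Ranges with rFGF1WT were 1.09 to 1.27 for *Il33*, -0.152 to 0.128 for *Il1rl1*, -0.582 to -0.547 for *Il17rb*, -0.306 to 0.852 for *Lif* and -0.309 to 0.528 for *Csf1*. With rFGF1ΔHBS they were 1.01 to 1.19 for *Il33*, -0.536 to -0.442 for *Il17rb*, 0.840 to 0.912 for *Lif* and -0.287 to 0.575 for *Csf1*. Between the proteins they were -0.0617 to 0.0222 for *Il1r1*, -0.128 to 0.630 for *Il6ra*, -0.00695 to 0.111 for *Il6st*, 0.0241 to 1.18 for *Lif* and -0.397 to 0.465 for *Csf1*. A group left with 1 library was assumed to vary like the others. With 2 libraries per group, 3 residual degrees of freedom limit every call, and fragments limit *Il6* and *Il11*.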
